A study of Mus musculus with 20 samples.

Results

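The 10 genes described here encode the core of polyamine metabolism: Odc1, Oaz1, Oaz2, Azin1, Amd1, Srm, Sms, Sat1, Smox and Paox. They were chosen by symbol from the 45777 genes listed in the deposited table, and all 10 were above 0 TPM (transcript abundance corrected for length and scaled to the same total in each library) in every library and so were among the 18706 genes tested. The libraries were made from polyadenylated RNA of 1 uterine horn per mouse, collected at 18:00 on day 3.5 after mating from 20 pregnant wild-type B6D2F1 mice aged 8 to 12 weeks, with 5 mice per group. Control mice received no treatment. IF (implantation failure) mice received 3 mg/kg RU486, an antagonist of the progesterone and glucocorticoid receptors, under the skin on the morning of day 3.5. PBMC mice received the same RU486 dose after 50000 peripheral blood mononuclear cells per horn on day 1.5, and PBMC-hCG mice received RU486 after the same number of cells cultured with 5 IU/mL human chorionic gonadotropin (hCG). The donor cells came from non-pregnant mice, and mice given medium without cells were not analysed here, so an effect of the cells and an effect of the intrauterine injection cannot be told apart.

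Polyamines are small cations that bind nucleic acids and are needed for growth and translation. Putrescine is made from ornithine by ornithine decarboxylase, and spermidine and spermine are built from it by adding aminopropyl groups taken from decarboxylated S-adenosylmethionine. Antizymes bind ornithine decarboxylase and send it to the proteasome, while acetylation and oxidation return the higher polyamines to putrescine or prepare them for export. In the rodent uterus, ornithine decarboxylase is known to be induced around implantation, and inhibiting it impairs implantation and decidualization. Much of this control acts on translation and protein turnover, which RNA levels do not measure.

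Across the whole horn, RNA for the acetylating enzyme (Sat1) and for an antizyme (Oaz2) was higher in every RU486-treated mouse than in every control mouse, by 1.56 to 1.87 times and 1.27 to 1.31 times on average. RNA for the synthetic enzymes Odc1, Amd1 and Srm was below control in the PBMC group and in the PBMC-hCG group. For Odc1 and Amd1 the difference of the PBMC group depended on which mice were included. In the IF group, Odc1 and Srm missed the threshold with all mice included and were lower than control without control replicate 2. Srm, Amd1 and Smox were also lower in PBMC-hCG mice than in IF mice, although that difference depended on which mice were included. No member differed between the PBMC and IF groups or between the PBMC-hCG and PBMC groups after adjustment. Between IF and control 2 of 10 members differed and did not overlap, where 21.9% of all genes differed and 12.8% did not overlap. Between PBMC-hCG and IF 3 of 10 differed, against 13.6% of all genes. Against control 5 of 10 differed in the PBMC and in the PBMC-hCG group, against 19.5% and 31.8% of all genes.

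TPM is scaled for transcript length, so levels can be set side by side between genes. By mean level over the 20 mice, Oaz1 was the highest at 470.0 TPM, followed by Sat1 at 311 TPM and Oaz2 at 189 TPM. Srm (86.4 TPM), Odc1 (56.2 TPM), Smox (54.8 TPM), Amd1 (49.4 TPM), Azin1 (45.5 TPM), Paox (31.9 TPM) and Sms (17.1 TPM) followed. The order held mouse by mouse at the top, with Oaz1 above Sat1 and Sat1 above Oaz2 in 20 of 20 mice. In the middle it did not hold, since Odc1 exceeded Smox in 7 of 20 mice and Amd1 exceeded Azin1 in 11 of 20. The RNA of the antizyme gene Oaz1 was thus 4.57 to 12.8 times as abundant as that of Odc1 over the 20 mice. Protein was not measured, and Oaz1 reads may be shared with a near-identical pseudogene described below.

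All 5 uterine markers, such as Hoxa10 and Pgr, were above 0 TPM in every library, with sums of 571 to 790 TPM. The 4 embryonic markers summed to between 0 and 0.82 TPM, and none of them was above 0 in all libraries. Of 5 ovary and oviduct markers 4 were above 0 in all libraries too, with sums of 8.96 to 30.4 TPM. Being above 0 therefore does not by itself single out uterus. Library totals lay between 999988.5 and 999999.4 TPM, so the number of reads behind a value is not known and counting intervals are not given. Control replicate 2 stood apart from the other control mice: its 4 adipose markers summed to 329.8 TPM against at most 11.8 TPM in the others, and its 7 stromal markers to 5150 TPM against at least 8215 TPM. Member calls that change without it are given both ways. In RNA from a whole horn, fewer cells of a type and less RNA per cell cannot be told apart. The 4 endothelial markers (Pecam1, Cdh5, Tek and Kdr) rose together in the IF group by limma's adjusted test, from a sum of 247 to 333 TPM in the control group to 385 to 413 TPM. Of 8 epithelial markers 5 rose and 1 fell, with sums of 771 to 1379 TPM in the controls and 1033 to 1365 TPM in the IF group. Of 7 myeloid markers 3 (Csf1r, Adgre1 and S100a9) rose, with sums of 627 to 832 TPM in the controls and 623 to 861 TPM in the IF group, and of 5 tested leukocyte markers 1 (Ptprc) rose. The stromal marker Dcn rose too, while 1 of 3 gland markers (Foxa2), 1 of 6 myometrial markers (Acta2), 1 of 4 tested ovary and oviduct markers (Ovgp1) and the stromal and uterine gene Hoxa11 fell. Of the other uterine markers Esr1 and Pgr rose and Hoxa10 fell. In PBMC-hCG against IF mice, Krt8 of the epithelial, Pdgfra of the stromal and Hoxa10 of the uterine list rose, and Hbb-bs fell among 4 red cell markers, whose sums were 488 to 1379.7 TPM in IF and 265 to 672 TPM in PBMC-hCG mice. Of 6 proliferation markers none passed between IF and control or between PBMC-hCG and IF, with sums of 103 to 471 TPM in control, 149 to 281 TPM in IF and 150.4 to 231 TPM in PBMC-hCG mice. Between IF and control 21.9% of all genes passed, and between PBMC-hCG and IF 13.6%. Without IF replicate 5 or PBMC-hCG replicate 3 the latter share was 0%, so the marker calls of that comparison depended on the mice included. The part of these cell types in the member results was not tested.

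The promoters of a pair of members that were higher after RU486 (Oaz2 and Sat1) and of a pair of synthetic genes that were lower in the PBMC and PBMC-hCG groups (Odc1 and Amd1) are printed here. Each pair was chosen because its RNA differed from control in the same direction, and shared regulation was not tested. Each runs 5′ to 3′ on the gene's own strand from 250 bases before to 50 bases after the start in the RefSeq annotation of GRCm38.p6, the build (mm10) to which the reads were aligned. For Oaz2, Amd1 and Sat1 that start is the first base of the gene, while the Odc1 window is placed on a start 65 bases downstream of it. Capitals mark matches, on either strand, to the motifs searched for. The E-box bound by Myc and related factors was searched as CACGTG. The TATA element was searched with the letters TATAA, and the GC box that Sp1 family factors bind as GGGCGG. The half-site shared by the progesterone and glucocorticoid receptors was searched as AGAACA, and the half-site of the cAMP response factors as TGACG. The palindromic estrogen response element was searched too.
Odc1 (chr12:17544623-17544922, plus strand): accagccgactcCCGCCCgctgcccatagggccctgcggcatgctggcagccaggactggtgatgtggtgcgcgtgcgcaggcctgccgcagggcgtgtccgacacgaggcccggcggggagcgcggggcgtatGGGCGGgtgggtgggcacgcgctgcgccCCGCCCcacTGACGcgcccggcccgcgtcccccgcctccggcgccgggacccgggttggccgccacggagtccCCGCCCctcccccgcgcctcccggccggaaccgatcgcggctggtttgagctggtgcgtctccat
Oaz2 (chr9:65676298-65676597, plus strand): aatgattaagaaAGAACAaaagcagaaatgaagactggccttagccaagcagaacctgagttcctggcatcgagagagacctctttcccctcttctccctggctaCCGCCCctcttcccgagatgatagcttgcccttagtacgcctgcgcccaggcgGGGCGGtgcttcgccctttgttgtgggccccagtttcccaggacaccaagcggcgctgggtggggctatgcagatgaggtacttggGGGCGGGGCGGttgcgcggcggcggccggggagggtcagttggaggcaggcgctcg
Amd1 (chr10:40302139-40302438, minus strand): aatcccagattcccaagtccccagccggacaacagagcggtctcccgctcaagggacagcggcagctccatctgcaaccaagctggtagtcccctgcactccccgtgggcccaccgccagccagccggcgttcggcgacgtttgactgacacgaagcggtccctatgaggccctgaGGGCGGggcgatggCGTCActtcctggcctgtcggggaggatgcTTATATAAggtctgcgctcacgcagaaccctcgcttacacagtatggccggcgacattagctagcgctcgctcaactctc
Sat1 (chrX:155216400-155216699, minus strand): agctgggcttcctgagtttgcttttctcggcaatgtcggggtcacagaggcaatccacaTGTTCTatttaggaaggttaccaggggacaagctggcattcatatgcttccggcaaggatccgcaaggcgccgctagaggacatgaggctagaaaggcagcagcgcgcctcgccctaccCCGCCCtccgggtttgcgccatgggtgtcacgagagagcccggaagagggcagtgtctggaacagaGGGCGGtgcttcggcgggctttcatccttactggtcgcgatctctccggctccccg
The Odc1 window held 4 GC boxes and 1 cAMP half-site, and the Amd1 window 1 GC box, 1 cAMP half-site and a pair of overlapping TATA matches, 1 on each strand. The Oaz2 window held 4 GC boxes, of which a pair overlap, and 1 steroid half-site, and the Sat1 window 2 GC boxes and 1 steroid half-site. GC boxes were found in 35.7%, the steroid half-site in 19.0%, the cAMP half-site in 20.8% and TATAA in 24.9% of all 32851 promoter windows of this length, CACGTG in 7.15% and the full estrogen element in 0.07%. Neither CACGTG nor the estrogen element was present in these 4 windows. Sequence outside the windows, such as the introns farther downstream, was not searched, so a site there would be missed. Of the other members, Oaz1, Sms, Smox and Paox also had windows, and CACGTG was found in 1 of the 2 windows of Sms.

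Odc1 (NCBI gene 18263, chromosome 12, 17544808 to 17551502), the gene for ornithine decarboxylase, opens the pathway. Its level in the 5 control mice was 78.1, 46.2, 74.3, 79.4 and 102 TPM, in IF mice 54.5, 60.8, 39.98, 56.99 and 67.9 TPM, in PBMC mice 47.2, 50.8, 51.96, 50.8 and 57.99 TPM and in PBMC-hCG mice 49.5, 40.7, 40.9, 33.6 and 40.4 TPM. Every control mouse except replicate 2 lay above every treated mouse, and replicate 2 lay among them. The group means were 75.96 ± 19.8 TPM in control, 56.04 ± 10.3 TPM in IF, 51.7 ± 3.91 TPM in PBMC and 41.04 ± 5.65 TPM in PBMC-hCG mice (SD, n = 5 each). Against control, the PBMC-hCG group was lower by limma's test (log2 fold change -0.85, SE 0.16, adjusted p = 0.000755), as was the PBMC group (log2 fold change -0.51, SE 0.16, adjusted p = 0.0335), although without any of control replicates 1, 3, 4 and 5 or PBMC replicates 1 to 4 the latter did not pass (-0.40 to -0.51, adjusted p 0.0578 to 0.0968). The IF group's difference missed the threshold (log2 fold change -0.42, SE 0.16, adjusted p = 0.0769), but passed it without control replicate 2 (-0.58, adjusted p = 0.00295). The difference between the PBMC-hCG and IF groups was -0.44 on the log2 scale (95% interval -0.78 to -0.10, adjusted p = 0.0723), and passed without IF replicate 3 (-0.55, adjusted p = 0.0198) or PBMC-hCG replicate 1 (-0.51, adjusted p = 0.042).

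The antizymes restrain ornithine decarboxylase. Oaz2 (NCBI gene 18247, chromosome 9, 65676548 to 65690300) stood at 160.2, 137, 165, 157 and 161 TPM in the controls, at 196, 210.0, 185, 198 and 201 TPM in IF mice, at 203, 194, 197, 197 and 198 TPM in PBMC mice and at 200.2, 206, 215, 195 and 199.8 TPM in PBMC-hCG mice. The lowest of the 15 RU486-treated mice was above the highest control mouse, and the treated groups overlapped each other almost entirely. Oaz2 was upregulated in the IF group (log2 fold change 0.35, SE 0.05, adjusted p = 5.37e-05), the PBMC group (log2 fold change 0.35, SE 0.05, adjusted p = 6.55e-05) and the PBMC-hCG group (log2 fold change 0.38, SE 0.05, adjusted p = 1.96e-05), each against control. These comparisons share the same 5 control mice. Between PBMC-hCG and IF mice the 95% interval of the log2 difference ran from -0.07 to 0.14.

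Oaz1 (NCBI gene 18245, chromosome 10, 80826656 to 80829290), the most abundant member, encodes the other main antizyme and varied little. Its group means were 458 ± 35.9 TPM in control, 491 ± 37.2 TPM in IF, 478 ± 10.99 TPM in PBMC and 452 ± 16.2 TPM in PBMC-hCG mice (SD, n = 5 each), and Oaz1 passed in none of the 6 comparisons with all mice included. Without IF replicate 3 it was lower in PBMC-hCG than in IF mice (-0.16, adjusted p = 0.0426). The 95% interval of its IF minus control difference was -0.02 to 0.22 on the log2 scale. Reads of Oaz1 may be shared with the processed pseudogene Oaz1-ps, which is 99.27% identical over 685 bases and was listed at a mean of 93.6 TPM.

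Azin1 (NCBI gene 54375, chromosome 15, 38487430 to 38519294) encodes the antizyme inhibitor, an inactive relative of ornithine decarboxylase that draws antizyme away. PBMC-hCG mice were at 44.2, 32.4, 31.6, 32.4 and 34.2 TPM and IF mice at 48.97, 49.3, 44.2, 48.6 and 75.9 TPM. Only PBMC-hCG replicate 1 reached the level of the lowest IF mouse. The difference lay just outside the threshold (log2 fold change -0.59, SE 0.20, adjusted p = 0.0515) and inside it without IF replicate 3 (-0.65, adjusted p = 0.031) or PBMC-hCG replicate 1 (-0.68, adjusted p = 0.0286), while control and PBMC mice spread over 26.1 to 53.4 and 37.96 to 67.1 TPM. Against control, the PBMC-hCG group did not pass with all mice included (log2 fold change -0.33, SE 0.20, adjusted p = 0.217) and was lower without control replicate 2 (-0.51, adjusted p = 0.0222). Its transcript overlaps the antisense gene Gm49077 over 359 bases. The libraries were stranded, but the strand setting used in the assembly is not given in the sources used here.

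**Figure D1:**
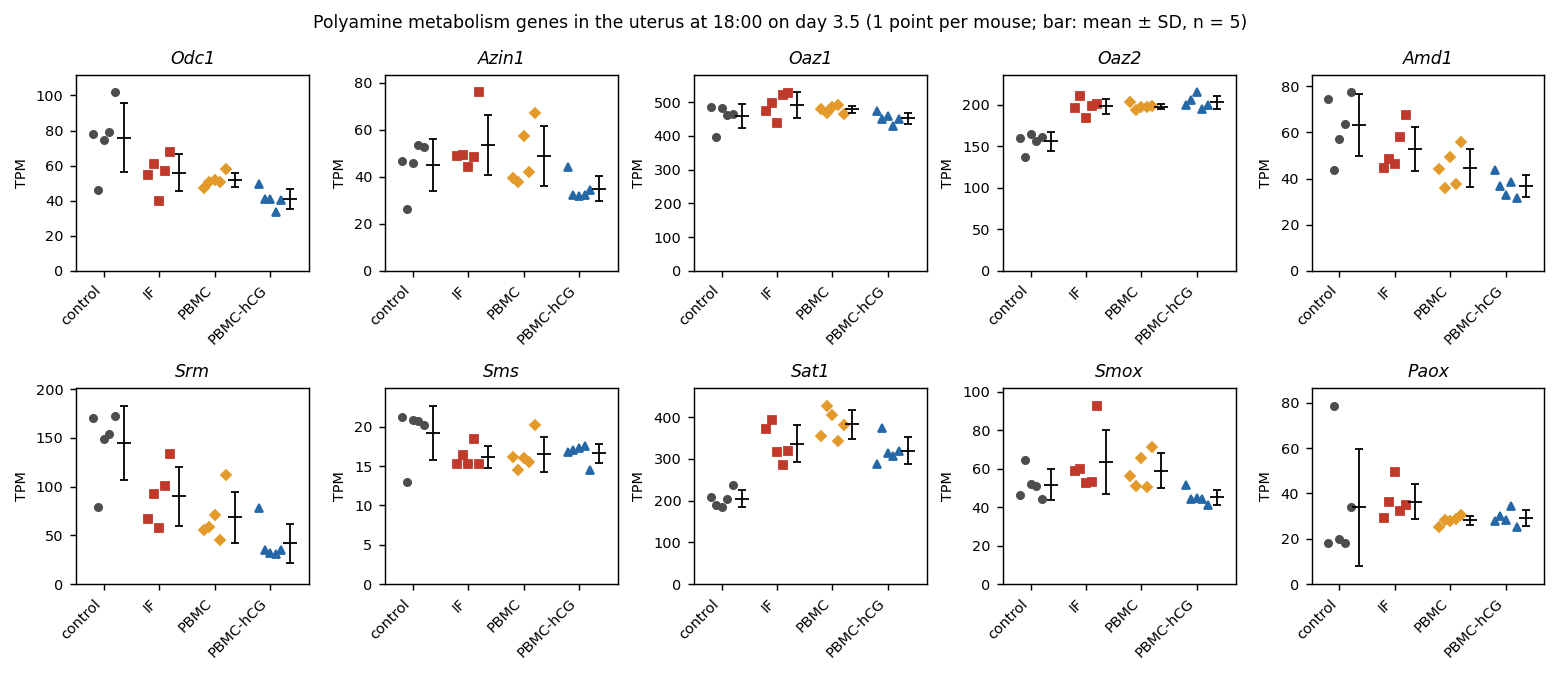
Level of each member in TPM (vertical axes from 0) for the 5 mice of each group (horizontal axis), with mean and SD beside the points. Sat1 and Oaz2 show control mice below all RU486-treated mice, while the means of Odc1, Amd1 and Srm are highest in control and lowest in PBMC-hCG mice, with control replicate 2 (the low control point) at the level of treated mice.

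Amd1 (NCBI gene 11702, chromosome 10, 40287458 to 40302188), S-adenosylmethionine decarboxylase, supplies the aminopropyl groups. Its level was 74.4, 43.8, 57.2, 63.8 and 77.4 TPM in the controls, 44.6, 48.5, 46.3, 57.8 and 67.4 TPM in IF mice, 43.9, 35.95, 49.4, 37.8 and 55.8 TPM in PBMC mice and 43.8, 36.7, 32.9, 38.7 and 31.7 TPM in PBMC-hCG mice. The highest PBMC-hCG mouse lay just under the lowest IF mouse, so the groups did not overlap, by a margin of less than 1 TPM. Amd1 was lower in PBMC-hCG than in IF mice (log2 fold change -0.52, SE 0.16, adjusted p = 0.0405) and lower than in control mice in both the PBMC-hCG group (log2 fold change -0.76, SE 0.16, adjusted p = 0.00126) and the PBMC group (log2 fold change -0.50, SE 0.16, adjusted p = 0.031). The difference from IF mice did not pass without any of IF replicates 2, 4 and 5 or PBMC-hCG replicates 2 to 5 (-0.43 to -0.54, adjusted p 0.0666 to 0.133), and the PBMC difference from control did not pass without any of control replicates 1, 4 and 5 or PBMC replicates 1, 2 and 4 (-0.42 to -0.50, adjusted p 0.0536 to 0.0877). Amd1 did not pass between IF and control (log2 interval -0.57 to 0.08). Amd1 shares 99.563% of 3202 bases with its near copy Amd2, so reads may be divided between them. The ratio of Amd1 to Amd2 stayed between 4.23 and 4.95 over the 20 mice.

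Srm (NCBI gene 20810, chromosome 4, 148591513 to 148594619), spermidine synthase, had the widest range of the synthetic genes. The control mice were at 170.2, 78.9, 149, 154 and 173 TPM, the IF mice at 67.03, 92.1, 57.5, 101 and 134 TPM, the PBMC mice at 55.4, 58.2, 71.2, 45.7 and 112 TPM and the PBMC-hCG mice at 77.9, 35.00, 31.5, 30.7 and 34.7 TPM. In the PBMC-hCG group 4 of 5 mice lay below every other mouse, and replicate 1 was at the level of control replicate 2 but still below it. The mean in PBMC-hCG mice was 0.281 times that in control (log2 fold change -1.83, SE 0.29, adjusted p = 0.000155) and 0.454 times that in IF mice (log2 fold change -1.14, SE 0.29, adjusted p = 0.0299), both on the log2(TPM + 0.1) scale. The difference from IF mice did not pass without any of IF replicates 2, 4 and 5 or PBMC-hCG replicates 2 to 5 (-0.98 to -1.12, adjusted p 0.0598 to 0.104). PBMC mice were also below control (log2 fold change -1.10, SE 0.29, adjusted p = 0.0125). Between IF and control, Srm missed the threshold (log2 fold change -0.69, SE 0.29, adjusted p = 0.101) and passed it without control replicate 2 (-0.90, adjusted p = 0.0254).

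Sms (NCBI gene 20603, chromosome X, 157443851 to 157492287), spermine synthase, uses the product of Srm and varied less than it. It stood at 21.3, 13.02, 20.8, 20.7 and 20.2 TPM in control mice and at 16.8, 17.04, 17.3, 17.6 and 14.6 TPM in PBMC-hCG mice, with IF mice at 15.2 to 18.5 TPM and PBMC mice at 14.5 to 20.2 TPM. With control replicate 2 (the lowest of the 20 mice) included, Sms passed in no comparison. Without that mouse the IF group was lower than control (log2 fold change -0.37, adjusted p = 0.00439), as were the PBMC group (-0.34, adjusted p = 0.00825) and the PBMC-hCG group (-0.32, adjusted p = 0.00736). The ratio of Srm to Sms RNA had a median of 7.42 in control, 5.45 in IF, 4.01 in PBMC and 2.05 in PBMC-hCG mice, with ranges of 6.06 to 8.53, 3.76 to 8.74, 2.94 to 5.54 and 1.74 to 4.65. This ratio is given as a description.

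Sat1 (NCBI gene 20229, chromosome X, 155213126 to 155216449), spermidine/spermine N1-acetyltransferase, acetylates spermidine and spermine and is the rate-limiting enzyme of their breakdown. Its level was 209.5, 189.6, 184, 203 and 238 TPM in the controls, 371, 393, 317, 284 and 318 TPM in IF mice, 355, 427, 405, 343 and 381 TPM in PBMC mice and 288, 373, 313, 307 and 318 TPM in PBMC-hCG mice. All 15 RU486-treated mice lay above the highest control mouse, and control replicate 2 was not apart from its group for this gene. Sat1 rose 1.64 times in the IF group (log2 fold change 0.71, SE 0.09, adjusted p = 2.38e-05), 1.87 times in the PBMC group (log2 fold change 0.90, SE 0.09, adjusted p = 2.41e-06) and 1.56 times in the PBMC-hCG group (log2 fold change 0.64, SE 0.09, adjusted p = 6.06e-05). The PBMC-hCG minus IF interval on the log2 scale was -0.26 to 0.13, and the PBMC-hCG minus PBMC difference of -0.26 had an adjusted p of 0.281. The processed pseudogene Gm5552, 96.699% identical to Sat1 over 515 bases, was listed at a mean of 19.4 TPM.

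Smox (NCBI gene 228608, chromosome 2, 131491858 to 131525183), spermine oxidase, turns spermine back into spermidine. It stood at 58.9, 59.9, 52.6, 52.9 and 92.7 TPM in IF mice and at 51.6, 44.1, 44.6, 44.4 and 41.3 TPM in PBMC-hCG mice. These groups did not overlap, although the nearest mice were about 1 TPM apart and IF replicate 5 was far above the others. Smox was lower in PBMC-hCG than in IF mice (log2 fold change -0.46, SE 0.14, adjusted p = 0.0415). Without IF replicate 5 the difference was -0.31 and no longer passed (adjusted p = 0.128), and it did not pass without IF replicate 2 or 4 or PBMC-hCG replicate 2, 3, 4 or 5 (-0.43 to -0.51, adjusted p 0.0671 to 0.0947). Control mice spanned 44.1 to 64.7 TPM and PBMC mice 50.6 to 71.4 TPM, and no difference from control passed in any treated group.

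Paox (NCBI gene 212503, chromosome 7, 140115735 to 140134334), the peroxisomal oxidase of acetylated polyamines, was dominated by 1 control mouse. The control values were 18.2, 78.7, 20.05, 18.3 and 34.02 TPM and the IF values 29.3, 36.3, 49.3, 32.4 and 34.9 TPM. Control replicate 2 was the highest of all mice, while 3 of the other 4 control mice were below every treated mouse. Paox passed in none of the 6 comparisons with that mouse included (IF minus control interval -0.25 to 0.94). Without it the IF group was higher (log2 fold change 0.71, adjusted p = 0.00349). Gm19680, a pseudogene 99.926% identical to Paox over 1358 bases, was listed at a mean of 4.83 TPM.

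By comparison, 2 of the 10 members passed between IF and control at an adjusted p under 0.05, both higher (Oaz2 and Sat1), where 21.9% of all tested genes passed. The same 2 members did not overlap between these groups, where 12.8% of all genes did not. The median log2 difference of the members was 0.18, beside 0.02 for all genes. Without control replicate 2 the count was 6, with Odc1, Srm and Sms lower and Paox higher as well, and 26.8% of all genes passed. Between PBMC-hCG and IF, 3 members passed (Amd1, Srm and Smox), all lower, against 13.6% of all genes, and 2 (Amd1 and Smox) did not overlap, against 7.24% of all genes. The members' median difference was -0.37 and that of all genes 0.05.

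That count of 3 was 0 when any of IF replicates 2, 4 or 5 or PBMC-hCG replicates 2, 3, 4 or 5 was left out, 6 without IF replicate 3 and 5 without PBMC-hCG replicate 1. Control replicate 2 enters this comparison only through the shared estimate of spread, and leaving it out gave 5 members, adding Odc1 and Azin1, with 21.8% of all genes. The share of all genes that passed moved with the count, from 0% without IF replicate 5 to 27.1% without IF replicate 3.

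Between PBMC and IF no member passed, and 0% of all genes did by limma's adjusted test. At an unadjusted p under 0.05 there were 0 of 10 members and 1271 of all 18706 tested genes. Between PBMC-hCG and PBMC no member passed, with 0.0107% of all genes. There, 4 of 10 members (Azin1, Srm, Sat1 and Smox) had an unadjusted p under 0.05, as had 3024 of all 18706 genes. Their log2 differences were -0.45, -0.74, -0.26 and -0.37, all lower in the PBMC-hCG group. Against control, 5 members passed in the PBMC group (19.5% of all genes) and the same 5 in the PBMC-hCG group (31.8%), with Oaz2 and Sat1 higher and Odc1, Amd1 and Srm lower. The count for PBMC against control was 3 to 6 as single mice were left out. It was 3, with neither Odc1 nor Amd1, without PBMC replicate 1, 2 or 4 or control replicate 1, 4 or 5 (15.8% to 17.0% of all genes), and it was 6, adding Sms, without control replicate 2 (24.7%). For PBMC-hCG against control it was 7, adding Azin1 and Sms, without control replicate 2 (40.2% of all genes) and 5 without any other mouse (25.4% to 32.1%).

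**Figure D2:**
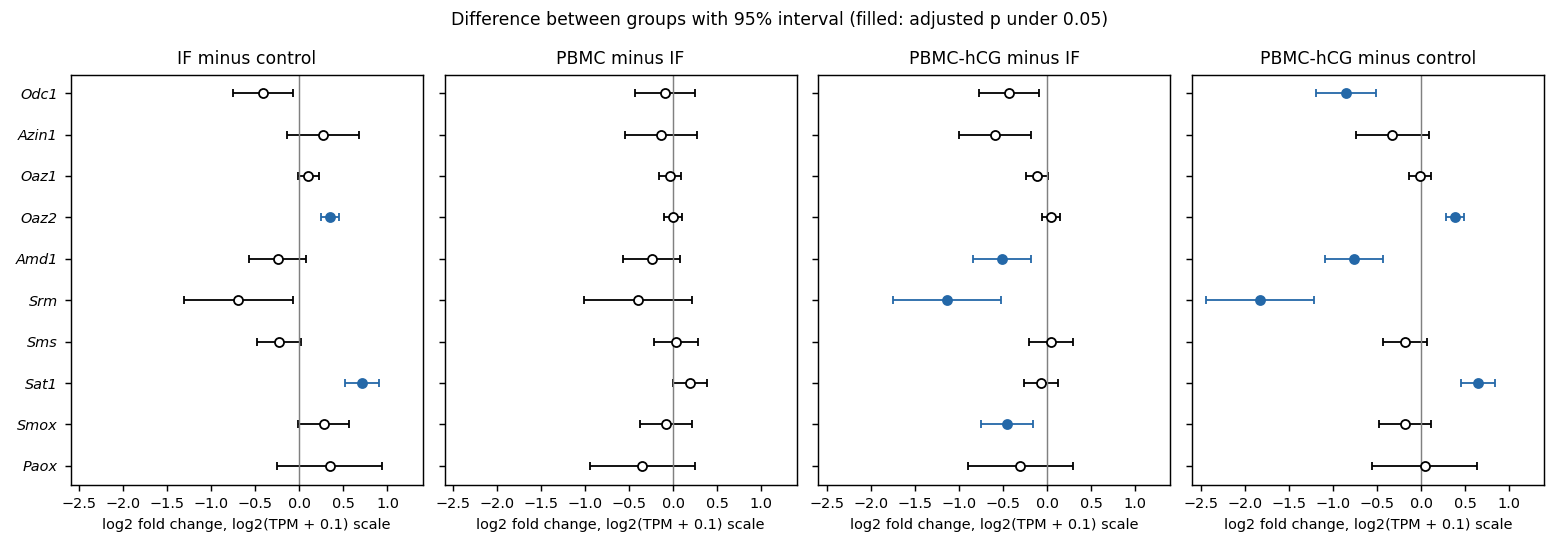
Log2 fold change of each member (horizontal axis, on the log2(TPM + 0.1) scale) with its 95% interval in 4 comparisons, with filled points where limma's adjusted p was under 0.05. Oaz2 and Sat1 lie to the right of 0 in both comparisons with control, and Amd1, Srm and Smox to the left between PBMC-hCG and IF.

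Sat1 and Odc1 act at opposite ends of the pathway. Sat1 RNA alone separated the control mice from the others, and Odc1 RNA alone did not, because of control replicate 2. Their ratio is given as a description. The ratio of Sat1 to Odc1 RNA was 2.34 to 4.11 in control mice (median 2.55), 4.68 to 7.93 in IF mice (median 6.45), 6.57 to 8.41 in PBMC mice (median 7.51) and 5.81 to 9.15 in PBMC-hCG mice (median 7.89). The highest control ratio, that of replicate 2, was below every treated mouse. The treated groups overlapped each other in this ratio.

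Within groups, the RNA levels of several members were correlated with that of Odc1 from mouse to mouse. After each group's mean was subtracted, the log2 levels of Odc1 and Srm had a Pearson r of 0.80 and a Spearman rho of 0.92 over the 20 mice, and an r of 0.75 without control replicate 2. For Odc1 with Azin1 the values were 0.80, 0.86 and 0.66, and for Odc1 with Amd1 they were 0.71, 0.77 and 0.56. The highest r was that of Odc1 with the antizyme Oaz1, at 0.81 with a rho of 0.67, and it was 0.65 without control replicate 2. For Odc1 with Oaz2 the values were 0.74, 0.59 and 0.48. With the synthetic gene Sms the r of 0.59 and rho of 0.56 rested on control replicate 2, since r was 0.14 without it. Odc1 and Sat1 had an r of 0.29 and a rho of 0.23. Odc1 and Smox had an r of 0.05 and a rho of 0.25, and an r of 0.49 without control replicate 2. The r with Odc1 was also taken without the 2 mice farthest from the median Odc1 level after centring. It was then 0.74 for Srm, 0.70 for Azin1, 0.58 for Amd1, 0.50 for Oaz1 and 0.33 for Oaz2. The negative r between Odc1 and Paox of -0.59 was -0.03 without control replicate 2, and so rested on that mouse. These correlations describe mice that share groups, tissue composition and the TPM scale, and no test was made of them.

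The 3 genes whose within-group pattern was most like that of Odc1, among 15770 genes with a mean of at least 1 TPM, were Gm13461 and Kpna2 (r of 0.97 each) and Snrpe (0.97). Kpna2 encodes a nuclear import receptor and Snrpe a spliceosomal Sm protein. Gm13461 is 97.281% identical to Ran over 662 bases and may carry its reads. For Sat1 the most similar were Gm35816 (0.72), Pcdhgc4 (0.68) and Lin9 (0.68). Over all 20 mice, no gene followed Sat1 as closely as the 3 genes named first followed Odc1. These values were not recomputed without control replicate 2, which was the lowest control mouse for Odc1 and not apart from its group for Sat1. How far the difference between Odc1 and Sat1 rests on that mouse was therefore not tested.

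**Figure D3:**
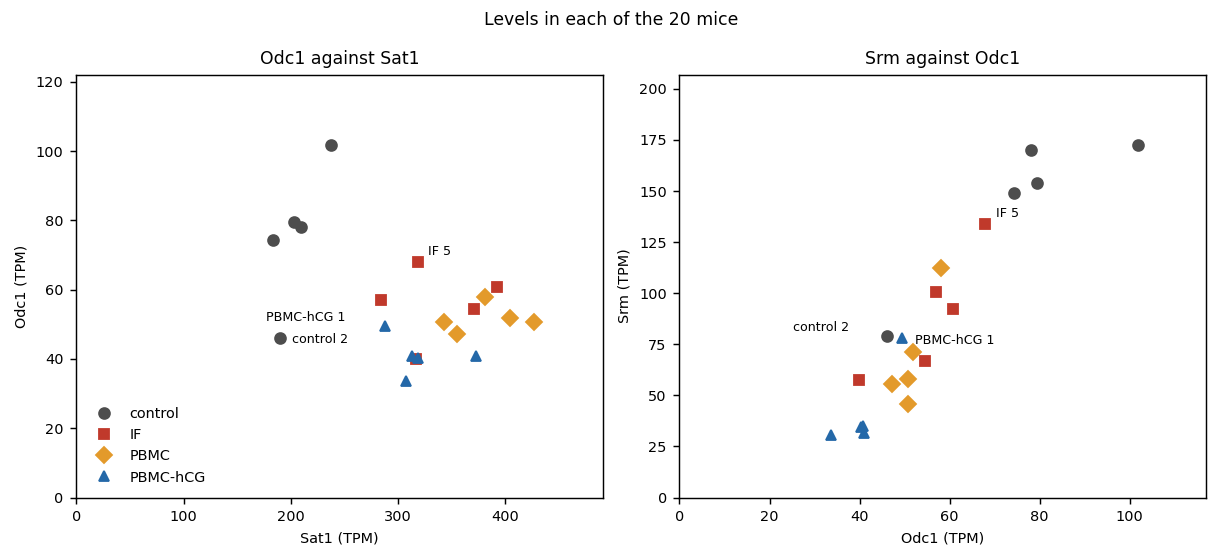
Odc1 against Sat1 and Srm against Odc1, both in TPM, with 1 point per mouse and 3 mice that stand apart named by group and replicate. Control mice lie at low Sat1, and mice with more Odc1 also had more Srm, with 4 PBMC-hCG mice at the lower end.

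Genes around the pathway were grouped by role. Their calls between PBMC-hCG and IF depended on the mice included, as those of the members did. Without IF replicate 5 or PBMC-hCG replicate 3, 0% of all genes passed in that comparison. At most 0.182% passed without IF replicate 2 or 4 or PBMC-hCG replicate 2, 4 or 5. Arginine and ornithine supply had 4 of 7 tested genes changed between IF and control, where 21.9% of all genes did, with a list median log2 difference of -0.26 beside 0.02 for all genes. Arg1, which cleaves arginine to ornithine in the cytosol, rose from 1.12 ± 0.307 to 2.45 ± 0.563 TPM (log2 fold change 1.07, SE 0.22, adjusted p = 0.00199) with no overlap, while the mitochondrial arginase Arg2 fell from 19.1 ± 4.44 to 12.8 ± 2.16 TPM (log2 fold change -0.55, SE 0.17, adjusted p = 0.0286), as means with SD over 5 mice. The mitochondrial ornithine carrier Slc25a15 (-0.40, adjusted p = 0.0151) and Aldh18a1, the enzyme that starts ornithine and proline synthesis from glutamate (-0.63, adjusted p = 0.040), also fell. Between PBMC-hCG and IF, where 13.6% of all genes passed, 1 of the 7 did, the cationic amino acid transporter Slc7a2, which was higher (0.54, adjusted p = 0.0407), and the list median was -0.22 beside 0.05 for all genes. Otc was listed at 0 in every library and Agmat in 19 of 20, and neither was tested.

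Of 7 tested genes for S-adenosylmethionine supply and methionine salvage, Adi1 rose (0.56, adjusted p = 0.00857) and Mtap fell (-0.53, adjusted p = 0.00259) between IF and control. The list median was -0.15 beside 0.02 for all genes, of which 21.9% passed. Mtap recycles methylthioadenosine, the by-product of spermidine and spermine synthesis, and averaged 37.4 ± 5.03 TPM (SD, n = 5) in control and 25.9 ± 3.98 TPM (SD, n = 5) in the IF group. Between PBMC-hCG and IF, where 13.6% of all genes passed, Mat2a fell (-0.61, adjusted p = 0.0264), as did Enoph1 (-0.40, adjusted p = 0.0287). Mat2b rose (0.36, adjusted p = 0.0258), and the list median was -0.21 beside 0.05 for all genes. Mat2a and Mat2b encode the catalytic and the regulatory subunit of the enzyme that makes S-adenosylmethionine, and their RNA moved in opposite directions. Mat1a was listed at 0 in every library.

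Among 7 tested genes of polyamine transport and diamine oxidation, 2 rose and none fell between IF and control, where 21.9% of all genes passed. The list median was 0.25 beside 0.02 for all genes. The organic cation transporter Slc22a3 stood at 3.30, 4.68, 4.24, 2.96 and 2.26 TPM in the controls and reached 12.1, 8.76, 10.5, 9.65 and 8.24 TPM in the IF group, with no overlap (log2 fold change 1.50, SE 0.18, adjusted p = 1.30e-05). The amino acid transporter heavy chain Slc3a2 rose by 0.50 on the log2 scale (adjusted p = 0.0114). Between PBMC-hCG and IF, Atp13a4 (-2.15, adjusted p = 0.0258) and Atp13a3 (-0.54, adjusted p = 0.0483) fell and the lysosomal polyamine exporter Atp13a2 rose (0.29, adjusted p = 0.0469). The list median was -0.38 beside 0.05 for all genes, of which 13.6% passed. Slc22a2 and Slc47a1 were at 0 in 15 and 2 libraries and were not tested.

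Myc activates Odc1 transcription in many cell types, and its network was measured through 12 genes. Between IF and control, Myc fell from 128, 113, 108, 119.7 and 96.03 TPM to 54.7, 56.8, 60.03, 52.1 and 50.1 TPM, with every IF mouse below every control mouse (log2 fold change -1.04, SE 0.09, adjusted p = 5.14e-07). Mycn rose (log2 fold change 1.37, SE 0.42, adjusted p = 0.0245), although control replicate 2 was at 15.0 TPM, above every IF mouse, with the other 4 control mice at 1.93 to 3.60 TPM. The Myc antagonist Mxd1 (0.44, adjusted p = 0.0168) and the related factor Mlxip (0.24, adjusted p = 0.0199) rose too. The list median was 0.15 beside 0.02 for all genes, of which 21.9% passed. Between PBMC-hCG and IF the antagonists Mxi1 (0.75, adjusted p = 0.0362) and Mxd4 (0.27, adjusted p = 0.0439) rose, and Myc did not pass. The list median was -0.06 beside 0.05 for all genes, of which 13.6% passed.

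Hypusination is the use of spermidine to modify the translation factor eIF5A. Of its 4 genes, none passed between IF and control (list median -0.21), where 21.9% of all genes passed. Dohh, the second enzyme of the modification, fell between PBMC-hCG and IF (-0.17, adjusted p = 0.0403), where 13.6% of all genes passed. The list median there was -0.16. Against control, all 4 genes were lower in the PBMC-hCG group, by the test on all genes, in which 31.8% of all genes passed. Among them Eif5a, named here after its values were seen, was at 809, 434, 709, 717 and 852 TPM in control mice and 486, 373, 369, 312 and 376 TPM in PBMC-hCG mice (log2 fold change -0.85, SE 0.17, adjusted p = 0.00121), and control replicate 2 lay within the PBMC-hCG range. Of 3 tested paralogs (Amd2, Azin2 and Sat2) none passed between IF and control or between PBMC-hCG and IF, with list medians of -0.11 and 0.20, and Oaz3 and Satl1 were listed at 0 in every library. In the comparisons of PBMC with IF and of PBMC-hCG with PBMC, no gene of these lists passed.

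**Figure D4:**
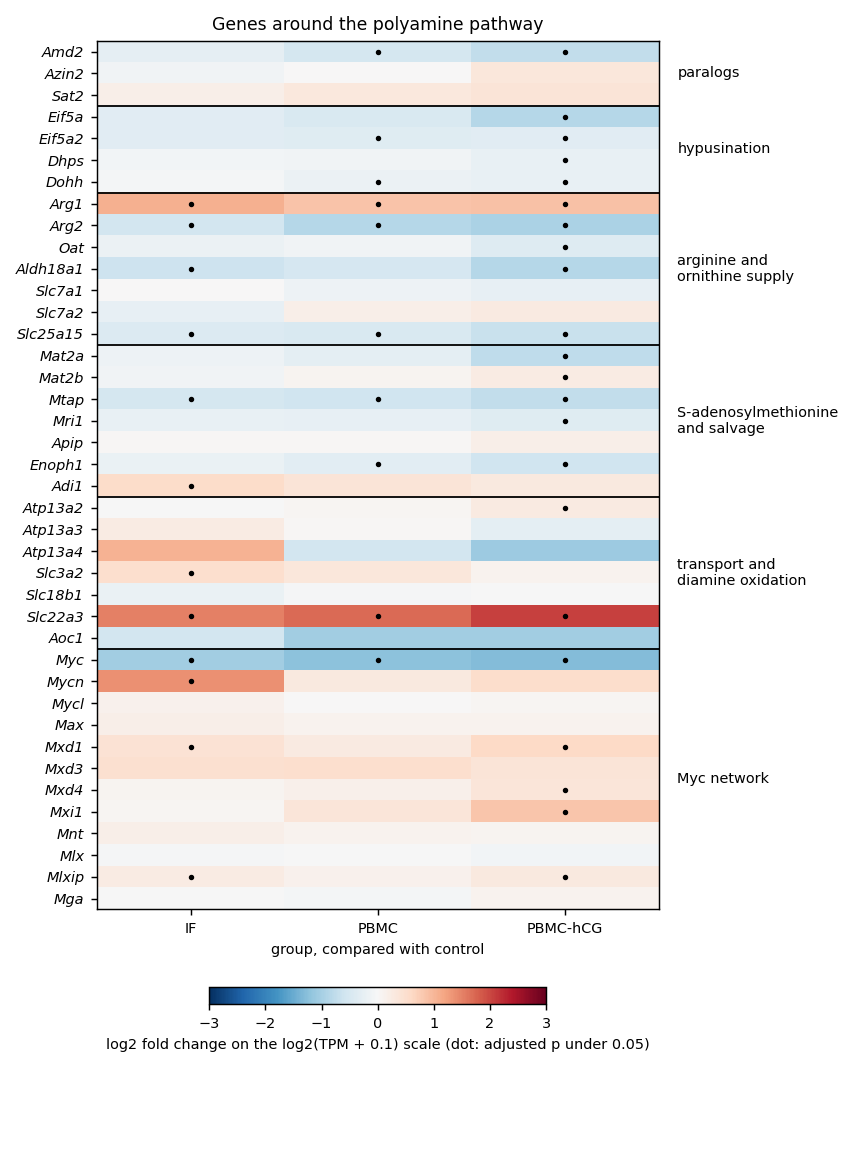
Log2 fold change (colour, on the log2(TPM + 0.1) scale, red higher and blue lower) of the 40 tested related genes (rows, grouped by role) in each treated group against the shared control group (columns), with a dot where limma's adjusted p was under 0.05. Myc and Arg2 are lower and Slc22a3 and Arg1 higher in all 3 columns, and the 4 hypusination genes carry dots in the PBMC-hCG column.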

How the data were processed

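Uterine RNA of 20 mice (4 groups of 5, grouped by the sample labels) was sequenced as stranded polyA libraries. The authors trimmed reads with Trimmomatic, aligned them to mm10 with HISAT2 and assembled transcripts with StringTie, versions not given in the sources used here. The values they deposited are TPM, which keep no depth. The authors tested counts with edgeR's exact test, which cannot be run on TPM.

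Instead, log2(TPM + 0.1) of the 18706 genes above 0 in all libraries was fitted for all 4 groups together by limma (version 3.58.1, R version 4.3.3) using a variance trend. Benjamini-Hochberg adjustment covered these genes within each of 6 comparisons, and an adjusted p under 0.05 was called. The pseudocount understates changes of low genes. P-values set each difference between groups against the spread between mice, estimated over all 4 groups together. Nothing in the labels says that replicate numbers pair mice, and no batch is named. Near-identical transcripts were found with BLAST 2.17.0 and plots were made by matplotlib (version 3.10.9, Python version 3.11.15).

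The members, related genes, markers and tests were chosen with earlier results of these data known. The text names the 10 members, and related genes by the rule of an adjusted p under 0.05 between IF and control or PBMC-hCG and IF, with values for at most 4 per list by size of change, and the 3 genes most like Odc1 and Sat1; 1 related gene is not reported here and is left out of its list's counts. Gene positions and promoters are RefSeq's for GRCm38.p6: positions matched all 10 members by NCBI gene identifier, and promoters 8 of them. Alternatives were other pseudocounts, filters, scalings, fits, the study's criterion, a replicate block and each mouse left out.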

Additional observations from a re-analysis of the deposited data

Results flagged for a closer look

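In 11 of 40 gene and group combinations, the mouse at 1 end lay farther from its neighbour than Dixon's 95% limit for 5 values allows, where chance gives about 1 in 20. Control replicate 2 was the outlying mouse for 5 genes: Oaz2 at 137 TPM, Azin1 at 26.1 TPM, Srm at 78.9 TPM and Sms at 13.0 TPM, all low, and Paox at 78.7 TPM, high. This is the mouse whose adipose markers were high and stromal markers low. IF replicate 5 was high for Azin1 at 75.9 TPM and for Smox at 92.7 TPM, and its adipose markers summed to 65.7 TPM. PBMC-hCG replicate 1 was high for Azin1 at 44.2 TPM and for Srm at 77.9 TPM. For Sms, PBMC replicate 5 was high at 20.2 TPM and PBMC-hCG replicate 5 low at 14.6 TPM.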

How the results depend on the processing

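Of 23 differences of a member with an unadjusted p under 0.05, none changed direction under 446 alternative fits, 390 kept their side of the threshold, 42 lost it and 14 gained it. Of the other 37, 10 changed sign in 28 of 724 fits and 7 passed in at least 1 fit: Sms in each treated group, Paox in IF and Azin1 in PBMC-hCG, all against control without control replicate 2, and Oaz1 (without IF replicate 3) and Oaz2 (quantile normalization) between PBMC-hCG and IF. Oaz2 and Sat1 kept their calls against control under every alternative fit run, except under the study's criterion, as did Odc1, Amd1 and Srm in PBMC-hCG against control, with Srm alone meeting that criterion. With the study's criterion (fold change of at least 2, unadjusted p under 0.05), 0 members passed between IF and control (4.03% of all genes) and 1 (Srm) in each of PBMC-hCG against IF (2.31%), PBMC against control (3.34%) and PBMC-hCG against control (4.74%). Without a filter on low values, 1 member passed between PBMC-hCG and IF (2.65% of all genes) and 3 between PBMC and control (11.0%). With only the 2 groups compared in the fit, 3 passed between PBMC and control (13.5%). Quantile normalization gave 5 between PBMC-hCG and IF, adding Oaz2, higher, and Azin1, lower (14.6% of all genes), and 3 between IF and control, adding Odc1 (22.7%). The cause of these shifts was not tested. Leaving out 1 mouse at a time gave 2 to 6 members between IF and control (17.8% to 26.8% of all genes). Between PBMC-hCG and IF it gave 0 to 6 (0% to 27.1%) and between PBMC and control 3 to 6 (15.8% to 24.7%). Between PBMC-hCG and control it gave 5 to 7 (25.4% to 40.2%), and in the other comparisons 0 to 0 (at most 0.0374%). An alternative chosen after seeing the data, leaving control replicate 2 out of the shared spread, gave 5 between PBMC-hCG and IF (21.8% of all genes). With the replicate number as a block, 2 members passed between IF and control (22.2% of all genes) and 4 between PBMC-hCG and IF (17.2%). The block gave 5 between PBMC and control (19.4%), 5 between PBMC-hCG and control (32.5%) and 0 in the other comparisons (0% and 0.0107%). Deviations of same-numbered mice from their group means had an r of -0.25 to 0.46, over 0.1 in 8 of 30 pairs. Replicate 5 gave the highest values, 0.46 for IF with PBMC and 0.40 for IF with control. Differently numbered mice were not compared, so whether the numbers mark a shared factor was not tested. The depth behind a TPM value is unknown and limits each comparison to the spread between mice.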
